A study of Homo sapiens with 6 samples.

Results

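The genes described here were the matrix metalloproteases (MMPs), the ADAM and ADAMTS metalloproteases, and the tissue inhibitors of metalloproteases (TIMPs). They were taken from the count table by name: each protein-coding row whose symbol was MMP, ADAM or ADAMTS followed by a number, or TIMP1 to TIMP4. The rule used no measured value and found 66 genes among 60662 rows, of which 23 were MMPs, 20 ADAMs, 19 ADAMTS genes and 4 TIMPs. Transcript counts came from stranded mRNA sequencing of TC-71, an established human cell line from Ewing sarcoma, a tumour of bone and soft tissue. XG knockout TC-71 cells (3 libraries) were set against wildtype TC-71 cells (3 libraries). Both groups were untreated and grown in the same serum-containing medium, and the knockout of XG, which encodes a blood group glycoprotein of the cell surface, was the labelled difference between them. Whether the knockout cells were 1 clone or a pool, and whether libraries of a group came from separate cultures, is not stated in the labels. The p-values below therefore measure only how far these libraries vary, which may be technical variation.

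Proteases of these families cut proteins of the extracellular matrix and of the cell surface with a zinc ion held by histidine residues. MMPs and ADAMTS enzymes mainly process matrix: collagens, procollagens and proteoglycans. ADAMs are membrane proteins, and several of them act as sheddases that release growth factors, receptors and adhesion molecules from the cell surface, while TIMPs bind the active site and block it. In Ewing sarcoma, as in other solid tumours, these enzymes are known for their part in matrix remodelling and invasion.

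The stretch of coding sequence that spells the zinc-binding site is what most of the proteases share. The zinc-binding motif (metzincin type) was searched in the reading frame of each gene's GENCODE 29 coding transcripts on GRCh38, as a 33-base stretch with 3 histidine codons, a glutamate codon after the first and a glycine or asparagine codon between the others. The longest transcript that held it gave the sequence, and it was found in 53 of the 62 proteases. It was found in 23 of 23 MMPs, 12 of 20 ADAMs and 18 of 19 ADAMTS genes. None of the 4 TIMPs had it, and neither did ADAM11, ADAM22 or ADAM23, which are known as brain ADAMs without protease activity. Sequences of the proteases that the results turn on follow, 5′ to 3′ on the coding strand, with the histidine codons in capitals.
MMP14: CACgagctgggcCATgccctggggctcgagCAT
MMP17: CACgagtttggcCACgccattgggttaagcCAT
MMP9: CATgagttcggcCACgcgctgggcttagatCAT
ADAM10: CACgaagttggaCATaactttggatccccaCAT
ADAM17: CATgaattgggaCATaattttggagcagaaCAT
ADAM15: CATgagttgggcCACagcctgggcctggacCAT
ADAMTS1: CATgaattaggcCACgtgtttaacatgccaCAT
ADAMTS4: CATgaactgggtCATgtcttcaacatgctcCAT
ADAMTS15: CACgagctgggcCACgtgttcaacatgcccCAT
ADAMTS2: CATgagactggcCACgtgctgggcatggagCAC

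On GRCh38 the MMP sites lay at chr14:22843283-22843315 (MMP14, plus strand, exon 5), chr12:131841659-131841691 (MMP17, plus strand, exon 5) and chr20:46012453-46012485 (MMP9, plus strand, exon 8). The ADAM17 site lay at chr2:9510078-9510110 (minus strand, exon 11) and the ADAM15 site at chr1:155056995-155057027 (plus strand, exon 11). The ADAM10 site spanned the junction of exons 9 and 10 at chr15:58627881-58633225 (minus strand). The ADAMTS1 site spanned exons 3 and 4 at chr21:26841143-26841867 (minus strand), that of ADAMTS4 exons 3 and 4 at chr1:161195613-161196180 (minus strand), that of ADAMTS15 exons 2 and 3 at chr11:130461612-130462109 (plus strand), and that of ADAMTS2 exons 7 and 8 at chr5:179154177-179154830 (minus strand). An exon junction cut the motif in 18 of 18 ADAMTS genes that had it, in 1 of 12 ADAMs and in 0 of 23 MMPs. Among members with the motif, ADAMTS1, ADAMTS4, ADAMTS15 and ADAMTS9 were the 4 with an asparagine codon where the others had a glycine codon. The search allowed only glycine or asparagine there. It therefore cannot say whether ADAMTS8, the ADAMTS gene without a match, lacks a zinc site. Among tested members whose sequence was compared, the 33 bases were identical at 17 to 30 positions (median 23) over 93 pairs within a family, and at 14 to 28 positions (median 21) over 183 pairs between families. The ranges overlapped widely: the sheddases ADAM10 and ADAM17 were identical at 25 positions and ADAM10 and ADAM15 at 17, while ADAM15 and MMP25, of different families, were identical at 28.

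Total counts per library were between 22557187 and 31214099. XG itself had 29.97, 29.98 and 28.9 CPM (counts scaled to library size) in knockout libraries, against 45.4, 47.1 and 44.4 CPM in wildtype libraries, so 64.8% of the wildtype level of XG transcript was still counted (log2 fold change −0.63, SE 0.048, adjusted p = 1.65e-06, edgeR's quasi-likelihood test). A gene-level count shows neither the edited exon nor the protein. Ewing sarcoma markers were present (7 of 7 tested, with summed levels of 2536 to 2556 CPM in knockout and 2611 to 2668 CPM in wildtype libraries). Among them CD99, a surface glycoprotein, fell to 461, 458 and 455 CPM in knockout libraries, against 503, 498 and 488 CPM in wildtype libraries (log2 fold change −0.12, adjusted p = 0.0302, edgeR). The leukocyte and endothelial markers that define those cells were each at or below 0.181 CPM. Fibroblast markers summed to 68.6 to 77.5 CPM in knockout and 73.4 to 78.9 CPM in wildtype libraries, and epithelial markers to 7.01 to 7.59 CPM in knockout and 5.14 to 5.72 CPM in wildtype libraries. Knockout replicate 3 stood apart: 196 of 14425 genes tested passed an adjusted p of 0.05 with all libraries, and 1851 genes did so without it. Where the call of a member turned on this library, values with and without it are given. Beside ADAM15 and ADAMTS15 below, the log2 fold change changed sign without it for ADAMTS8 (0.09 with it, −0.011 without), MMP1 (0.09 with it, −0.0072 without), ADAMTS13 (−0.21 with it, 0.013 without) and ADAMTS17 (0.04 with it, −0.23 without).

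In these cells the group was dominated by the inhibitor TIMP1, and no member passed the test between knockout and wildtype. TIMP1 was by far the highest at 332 FPKM (CPM divided by exon length in kilobases), followed by ADAM9 (19.6 FPKM), TIMP3 (12.7 FPKM), ADAMTS1 (8.95 FPKM) and MMP14 (8.35 FPKM), as means over the 6 libraries. Of the 66 members, 34 had enough counts to be tested, 16 were at 0 in all 6 libraries, and 16 had a few counts. The tested members were 9 of 23 MMPs, 9 of 20 ADAMs, 12 of 19 ADAMTS genes and 4 of 4 TIMPs. FPKM divides by the union of all annotated exons, so it sits low for genes with many long isoforms such as ADAM10 (15979 bases).

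**Figure D1:**
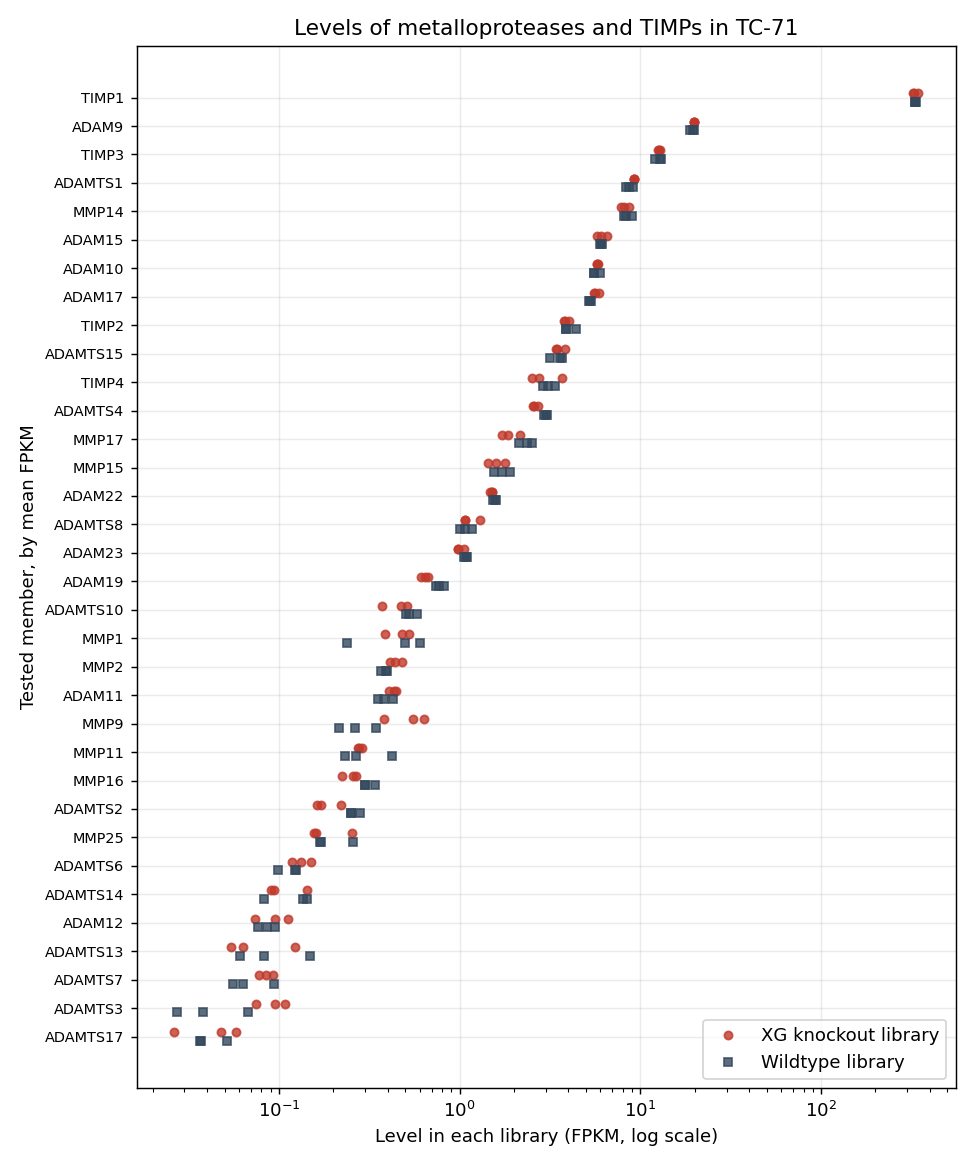
Level of each of the 34 tested members in each library, in FPKM on a log axis, ordered by mean. Circles are XG knockout libraries and squares wildtype libraries (3 each). TIMP1 stands far to the right at a mean of 332 FPKM, and in most rows the circles and squares overlap.

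The order of levels was graded, with overlap between neighbours. After MMP14 came ADAM15 (6.09 FPKM), ADAM10 (5.73 FPKM), ADAM17 (5.47 FPKM), TIMP2 (3.97 FPKM), ADAMTS15 (3.52 FPKM), TIMP4 (3.05 FPKM), ADAMTS4 (2.80 FPKM), MMP17 (2.12 FPKM) and MMP15 (1.66 FPKM). For 23 of the 33 pairs of neighbours in the order of all 34, the ranges over the 6 libraries overlapped. TIMPs held 82.9% of the summed FPKM of all members, ADAMs 9.61%, ADAMTS genes 4.16% and MMPs 3.36%. In bulk RNA, fewer cells that express a gene and less RNA per cell cannot be told apart.

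The 0 of 34 calls stood beside 1.36% of all genes tested (196 of 14425) at an adjusted p under 0.05 by edgeR. DESeq2 and limma voom also called 0 members, DESeq2 with an adjusted p for 12 of them. In the authors' deposited table an adjusted p is given for 10 members, the smallest being 0.114 for ADAMTS4, and 2.66% of its genes with one passed. Among all genes DESeq2 passed 2.19% and limma voom 1.5%. At an unadjusted p under 0.05 edgeR gave 8 of 34 members (23.5%), against 16.8% of all genes (6.98% higher and 9.81% lower in knockout). These were MMP9, ADAMTS3 and ADAM17 with higher values in knockout libraries, and ADAMTS4, MMP17, ADAMTS2, ADAM19 and MMP16 with lower values. The values of knockout and wildtype libraries were fully apart for 10 of 34 members (29.4%), against 20.5% of all genes (10.7% higher and 9.8% lower in knockout). Nothing particular to the members is read from these shares. Members passed in 3 of the other fits: ADAMTS4 and MMP9 with no filter on low counts (2.37% of all genes) and with GC correction (2.36%), and 4 members without knockout replicate 3 (12.7%). None passed by edgeR with relative log expression scaling (1.46% of all genes), upper quartile scaling (1.42%), a filter at 100 counts in 3 libraries (1.26%) or the replicate number as a block (0.256%). With knockout replicate 3 as the only knockout library 0 passed (0.83%). Without another library 0 passed too: 0.457% of all genes passed without knockout replicate 1, 0.281% without knockout replicate 2, 0.164% without wildtype replicate 1, 0.177% without wildtype replicate 2 and 0.122% without wildtype replicate 3.

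The fold changes of the tested members centred on 0. Their median log2 fold change was 0.0048, with 18 positive and 16 negative, beside a median of 0.0019 over all genes. For 21 of the 34 the 95% interval lay inside a 1.5-fold change in either direction. The wide intervals belonged to low genes. Of the 34, 8 were under 1 CPM on average in both groups. Wide intervals also occurred above that level, up to MMP16 (means of 3.02 CPM in knockout and 3.79 CPM in wildtype libraries).

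**Figure D2:**
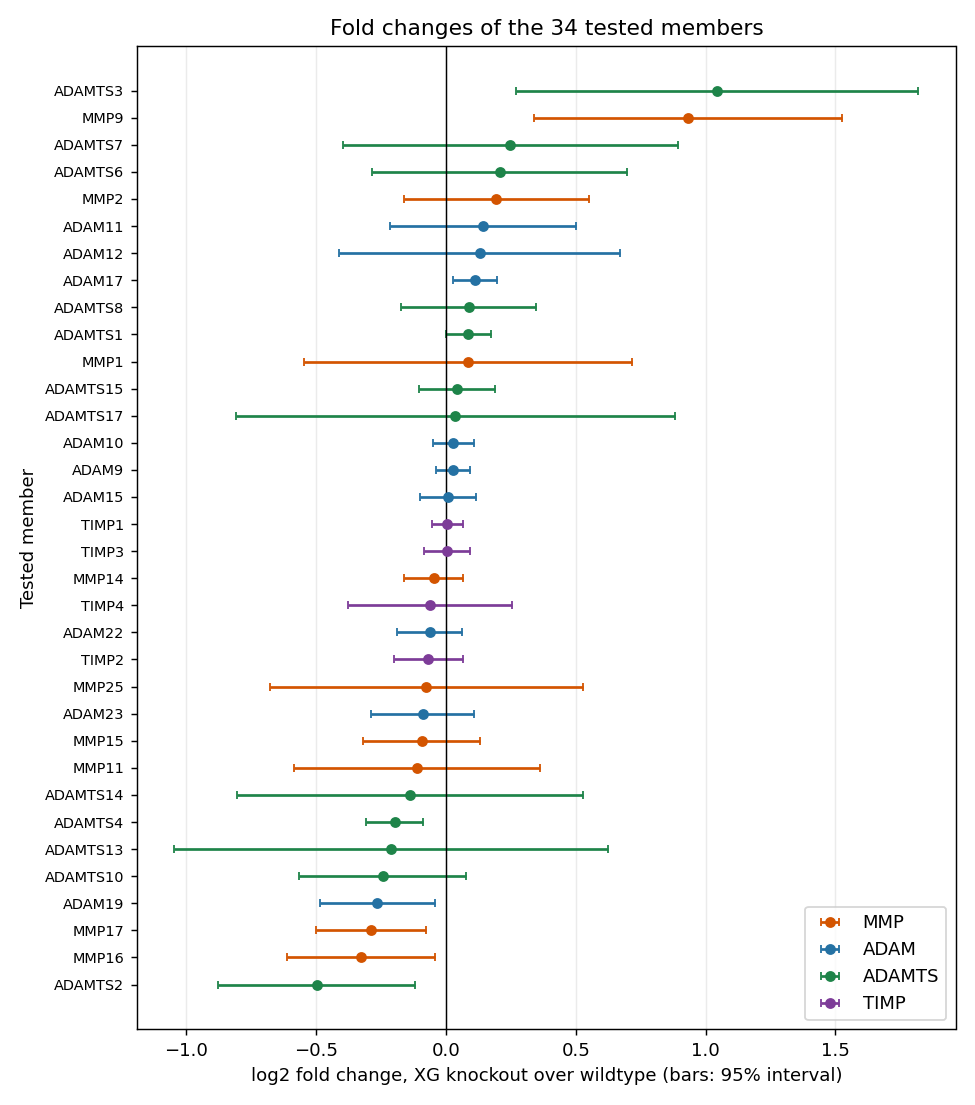
Log2 fold change of XG knockout over wildtype for the 34 tested members, with 95% intervals from the edgeR fit (3 libraries a group), coloured by family. Values run from 1.04 for ADAMTS3 at the top to −0.50 for ADAMTS2 at the bottom, with the 4 TIMPs and the abundant ADAMs close to 0.

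None of the inhibitors passed the test, and TIMP1 and TIMP3 were measured more tightly than TIMP4. TIMP1, a secreted inhibitor of most MMPs, had 499, 470 and 475 CPM in knockout libraries, against 478, 484 and 476 CPM in wildtype libraries. Its log2 fold change was 0.0056, with a 95% interval of −0.05 to 0.06. TIMP3, which binds to matrix and also inhibits ADAM17 and ADAMTS enzymes, had 58.9, 57.9 and 58.7 CPM in knockout and 59.9, 55.6 and 59.5 CPM in wildtype libraries. For both genes the groups overlapped, and the interval of TIMP3 was −0.08 to 0.09. TIMP2, which inhibits MMPs and also takes part in MMP2 activation by MMP14, had 21.3, 21.4 and 22.7 CPM in knockout and 21.9, 24.8 and 21.9 CPM in wildtype libraries (log2 fold change −0.07). TIMP4, the least expressed of the 4, had 3.29, 3.004 and 4.42 CPM in knockout and 4.02, 3.45 and 3.69 CPM in wildtype libraries. Knockout replicate 3 was the highest library for TIMP4, whose log2 fold change was −0.06 with it and −0.25 without it.

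TIMP1 made up 94.4% of the summed TIMP FPKM. The TIMPs summed to 365, 344 and 349 FPKM in knockout libraries, against 351, 354 and 349 FPKM in wildtype libraries. The proteases summed to 71.6, 72.1 and 74.8 FPKM in knockout libraries, against 72.2, 73.4 and 72.1 FPKM in wildtype libraries. The ratio of summed TIMP to summed protease FPKM was 4.84 ± 0.23 in knockout and 4.84 ± 0.015 in wildtype libraries (SD, n = 3 each). These are transcript ratios and say nothing of protein stoichiometry. TIMP1, TIMP3 and TIMP4 each lie inside a synapsin gene on the opposite strand. Counting was strand-specific, but how well it kept the pairs apart was not tested. SYN1 averaged 13.6 CPM, SYN3 1.57 CPM and SYN2 0.215 CPM. Neither SYN1 (log2 fold change 0.10, adjusted p = 0.600, edgeR) nor SYN3 (0.29, adjusted p = 0.528, edgeR) passed the test.

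Among the proteolytic ADAMs, ADAM9 alone held 27.0% of the summed protease FPKM. ADAM9, a broadly expressed membrane metalloprotease, had 140.0, 138.9 and 139.2 CPM in knockout libraries, against 139.1, 137.8 and 133.1 CPM in wildtype libraries. ADAM10, the main sheddase of Notch receptors and of the amyloid precursor protein, had 92.1, 93.4 and 92.0 CPM in knockout libraries, against 88.4, 95.4 and 88.3 CPM in wildtype libraries. Both had a log2 fold change of 0.03, and in both the groups overlapped. ADAM15, which carries an integrin-binding disintegrin domain, had 40.1, 37.7 and 42.9 CPM in knockout and 39.6, 40.1 and 40.2 CPM in wildtype libraries, with groups that overlapped. Its log2 fold change was 0.0075 with all libraries and −0.04 without knockout replicate 3.

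ADAM17, the sheddase of tumour necrosis factor and of several epidermal growth factor receptor ligands, had the smallest p of this class. It had 60.2, 63.2 and 59.4 CPM in knockout libraries, against 56.1, 57.1 and 56.0 CPM in wildtype libraries. Each knockout library lay above each wildtype library, yet the difference was small (log2 fold change 0.11, SE 0.041) and missed the threshold (adjusted p = 0.173, edgeR). Without knockout replicate 3 it was 0.13 and passed (adjusted p = 0.0286, edgeR), in a fit that called 12.7% of all genes. Over all settings tried its adjusted p was 0.0286 to 0.679. ADAM19, a sheddase of neuregulins, had 4.70, 4.96 and 5.18 CPM in knockout libraries, against 5.90, 5.72 and 6.27 CPM in wildtype libraries (log2 fold change −0.26, SE 0.105, adjusted p = 0.207, edgeR). Its groups did not overlap. ADAM12, a metalloprotease of muscle and placenta, was near 1 CPM at 0.723, 1.11 and 0.932 CPM in knockout and 0.941, 0.844 and 0.756 CPM in wildtype libraries.

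The 3 brain ADAMs without the zinc motif were all expressed above the limit for testing. ADAM22, a receptor for the secreted synaptic protein LGI1, had 18.4, 18.0 and 18.4 CPM in knockout libraries, against 19.2, 18.7 and 19.3 CPM in wildtype libraries. The groups did not overlap, but the log2 fold change was only −0.06, with a 95% interval of −0.19 to 0.06. ADAM23, another LGI1 receptor, averaged 6.49 ± 0.30 CPM in knockout and 6.91 ± 0.13 CPM in wildtype libraries, and ADAM11 averaged 2.07 ± 0.093 CPM in knockout and 1.87 ± 0.19 CPM in wildtype libraries (SD, n = 3 each). Of the 8 mainly testis ADAMs, none had enough counts to be tested.

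Among the ADAMTS enzymes that cleave proteoglycans, ADAMTS4 had the smallest p of all members. ADAMTS4, an aggrecanase, had 26.2, 26.5 and 28.0 CPM in knockout libraries, against 30.3, 31.3 and 31.1 CPM in wildtype libraries. All knockout libraries were below all wildtype libraries, and the knockout mean was 87.2% of the wildtype mean after normalisation (log2 fold change −0.20, SE 0.052). The adjusted p was 0.0650 by edgeR, just short of the threshold. It passed with a correction for gene GC content (−0.18, adjusted p = 0.0338, edgeR), and it passed without knockout replicate 3 (−0.23, adjusted p = 0.00353, edgeR). With no filter on low counts it passed too (adjusted p = 0.0452, edgeR), and over all settings its adjusted p was 0.00353 to 0.476.

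ADAMTS1, a protease of versican and aggrecan, had 65.2, 65.3 and 64.7 CPM in knockout libraries, against 64.1, 61.1 and 58.4 CPM in wildtype libraries. The groups did not overlap, with wildtype replicate 1 the closest to the knockout libraries, and the difference missed the threshold (log2 fold change 0.09, adjusted p = 0.307, edgeR). ADAMTS15, another versican-cleaving enzyme, had 19.5, 19.6 and 21.6 CPM in knockout and 20.3, 17.8 and 20.95 CPM in wildtype libraries (log2 fold change 0.04, and −0.0086 without knockout replicate 3). ADAMTS8 had 4.42, 4.43 and 5.35 CPM in knockout and 4.16, 4.41 and 4.85 CPM in wildtype libraries, and for both the groups overlapped. ADAMTS5, the other classical aggrecanase, was at 0 in all 6 libraries, which at 3 counts allows up to 0.0961 to 0.133 CPM by library.

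The procollagen N-propeptidases, which trim the amino-terminal propeptide of fibrillar procollagens, had values on both sides of 0. ADAMTS2, the enzyme lacking in dermatosparactic Ehlers-Danlos syndrome, had 1.49, 1.42 and 1.93 CPM in knockout libraries, against 2.46, 2.19 and 2.18 CPM in wildtype libraries (log2 fold change −0.50, SE 0.181, adjusted p = 0.170, edgeR). ADAMTS3, which also processes the lymphatic growth factor VEGFC, had 0.522, 0.664 and 0.760 CPM in knockout libraries, against 0.470, 0.192 and 0.267 CPM in wildtype libraries (log2 fold change 1.04, SE 0.369, adjusted p = 0.159, edgeR). In both genes the groups did not overlap, and neither passed. Without knockout replicate 3, ADAMTS2 passed at −0.65 (adjusted p = 0.0403, edgeR), with 0.0403 to 0.821 over all settings. ADAMTS14, the remaining N-propeptidase, averaged 0.607 ± 0.16 CPM in knockout and 0.671 ± 0.18 CPM in wildtype libraries (SD, n = 3 each). ADAMTS10, a microfibril-associated member, had 2.13, 2.69 and 2.90 CPM in knockout libraries, against 3.33, 2.88 and 2.98 CPM in wildtype libraries, with knockout replicate 3 inside the wildtype range (log2 fold change −0.24, adjusted p = 0.455, edgeR).

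**Figure D3:**
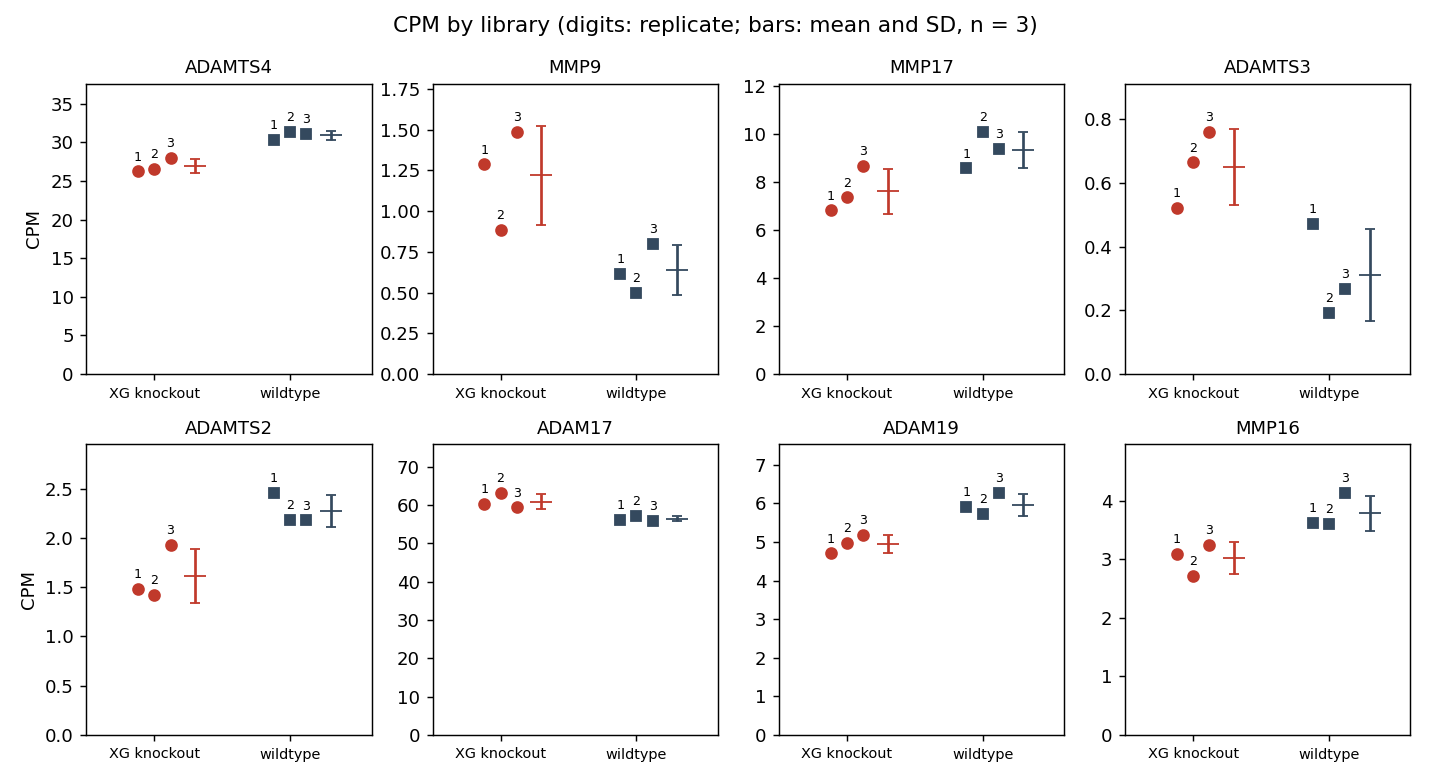
CPM in each library for the 8 members with an unadjusted edgeR p under 0.05, XG knockout left and wildtype right, each panel with its own axis starting at 0. Digits are replicate numbers and bars are mean and SD (n = 3). The groups are apart in all panels but that of MMP17, where knockout replicate 3 at 8.67 CPM lies above wildtype replicate 1 at 8.58 CPM.

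The membrane-type MMPs, anchored at the cell surface, were the main MMPs of this line. MMP14, which cleaves collagen around the cell and activates MMP2, had 34.9, 36.1 and 38.8 CPM in knockout libraries, against 36.1, 40.2 and 37.3 CPM in wildtype libraries. MMP15 had 6.07, 6.74 and 7.56 CPM in knockout libraries, against 6.59, 7.25 and 8.05 CPM in wildtype libraries. In both the groups overlapped. All 5 tested members of this class had a log2 fold change below 0 (−0.05 for MMP14, −0.09 for MMP15, −0.33 for MMP16, −0.29 for MMP17 and −0.08 for MMP25). Over all genes tested 49.1% were below 0, and the 95% intervals of MMP14, MMP15 and MMP25 spanned 0. MMP14, MMP15 and MMP25 turned positive with knockout replicate 3 as the only knockout library, and likewise with the GC correction. Without that library MMP14 was at −0.09, MMP15 at −0.18 and MMP25 at −0.34. MMP25 was also positive without knockout replicate 1, knockout replicate 2 or wildtype replicate 1.

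MMP17, anchored by a glycolipid, had 6.83, 7.37 and 8.67 CPM in knockout libraries, against 8.58, 10.1 and 9.39 CPM in wildtype libraries (log2 fold change −0.29, SE 0.101, adjusted p = 0.155, edgeR). Knockout replicate 3 was the highest of its group and overlapped wildtype replicate 1. Without that library MMP17 passed at −0.39 (adjusted p = 0.00845, edgeR). With the GC correction its log2 fold change was −0.15 (adjusted p = 0.483, edgeR), and its adjusted p was 0.00845 to 0.839 over all settings. Its transcript GC content of 68.7% was above the median of 48.0% over all genes tested. The median of the 34 tested members was 57.0%, also above that of all genes. MMP16, a membrane-type enzyme best known from nervous tissue, had 3.09, 2.72 and 3.25 CPM in knockout libraries, against 3.62, 3.61 and 4.14 CPM in wildtype libraries, with no overlap (SE 0.136, adjusted p = 0.232, edgeR).

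Of the gelatinases, MMP9 had the largest relative difference among members that averaged above 1 CPM in either group. MMP9, which degrades denatured and basement membrane collagen, had 1.29, 0.885 and 1.48 CPM in knockout libraries, against 0.615, 0.499 and 0.801 CPM in wildtype libraries. These values rest on 32, 28 and 43 counts in knockout and 17, 13 and 18 counts in wildtype libraries. All knockout libraries were above all wildtype libraries (log2 fold change 0.93, SE 0.282), and the adjusted p was 0.105 by edgeR. It passed with the GC correction (1.02, adjusted p = 0.0396, edgeR) and with no filter on low counts (adjusted p = 0.0285, edgeR), where 2.37% of all genes passed. Over all settings its adjusted p was 0.0285 to 0.357. MMP2, the other gelatinase, had 2.25, 1.93 and 2.07 CPM in knockout libraries, against 1.74, 1.84 and 1.87 CPM in wildtype libraries, without overlap and with a log2 fold change of 0.19 (95% interval −0.16 to 0.55).

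**Figure D4:**
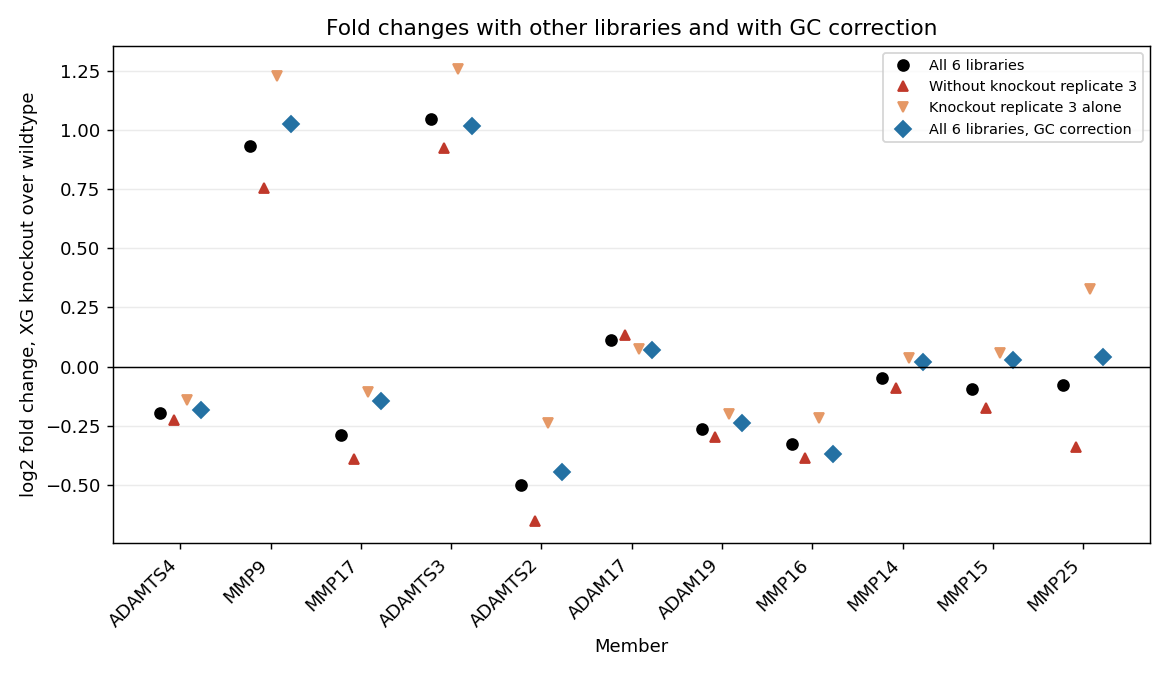
Log2 fold change of XG knockout over wildtype for the 8 members with an unadjusted p under 0.05 and for MMP14, MMP15 and MMP25, from all 6 libraries, without knockout replicate 3, with that library as the only knockout, and with GC correction. ADAMTS4 stays below 0 and MMP9 above 0 in all 4 fits, whereas MMP14, MMP15 and MMP25 lie on both sides of 0.

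The secreted MMPs of the chromosome 11 cluster were nearly silent. Of its 9 genes (MMP7, MMP20, MMP27, MMP8, MMP10, MMP1, MMP3, MMP12 and MMP13), 5 were at 0 in all libraries. MMP1, the interstitial collagenase, was the 1 tested member, with 0.763, 0.949 and 1.04 CPM in knockout libraries, against 0.470, 1.19 and 0.979 CPM in wildtype libraries and groups that overlapped. The other genes of the cluster had 6 counts in all over the 6 libraries. MMP11, a stromelysin encoded elsewhere, averaged 1.44 ± 0.039 CPM in knockout and 1.59 ± 0.52 CPM in wildtype libraries (SD, n = 3 each).

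The 16 members with counts too low for the test held at most 42 counts each over the 6 libraries, against at least 58 for a tested member. Among them, picked after their values were seen, ADAM32 had 24 counts over the knockout and 6 over the wildtype libraries, MMP21 had 8 and 1, ADAMTS16 had 9 and 22, and ADAM20 had 0 and 6. At this depth no difference is read from such counts. MMP23B and ADAMTS7 have near-identical copies in the genome, so their counts are uncertain.

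Genes that work with the proteases were counted from lists drawn up by role. Of 29 activators, partners and other inhibitors, 20 were tested and 0 passed by edgeR (1.36% of all genes), with 4 at an unadjusted p under 0.05 (16.8% of all genes) and a median log2 fold change of −0.03. Basigin (BSG), an MMP inducer at the cell surface, had 820, 796 and 919 CPM in knockout libraries, against 923, 962 and 917 CPM in wildtype libraries (log2 fold change −0.14, adjusted p = 0.0736, edgeR). Knockout replicate 3 lay within the wildtype range, and without it BSG was at −0.21 (adjusted p = 1.18e-07, edgeR). It was at −0.02 with that library as the only knockout and at −0.06 with the GC correction (adjusted p = 0.227, edgeR). Over all settings its adjusted p was 1.18e-07 to 0.816. ADAMTSL5, an ADAMTS-like protein without a protease domain, had 2.37, 2.21 and 2.35 CPM in knockout libraries, against 1.59, 1.73 and 1.51 CPM in wildtype libraries, with groups that did not overlap (log2 fold change 0.51, adjusted p = 0.131, edgeR).

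Of 47 textbook substrates, 32 were tested and 0 passed by edgeR (1.36% of all genes), with 4 at an unadjusted p under 0.05 (16.8% of all genes) and a median log2 fold change of −0.02. APLP2, a homologue of the amyloid precursor protein, had 238, 232 and 236 CPM in knockout libraries, against 223, 222 and 217 CPM in wildtype libraries (log2 fold change 0.09, adjusted p = 0.100, edgeR). Its groups did not overlap. It passed with the GC correction (0.09, adjusted p = 0.0293, edgeR) and without knockout replicate 3 (0.09, adjusted p = 0.0227, edgeR), and over all settings its adjusted p was 0.0227 to 0.350. MERTK, a receptor tyrosine kinase shed by ADAM17, had 18.8, 19.1 and 19.9 CPM in knockout libraries, against 20.99, 21.1 and 21.8 CPM in wildtype libraries (log2 fold change −0.14, adjusted p = 0.221, edgeR). Its libraries did not overlap between the groups either.

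Zinc metalloproteases outside the naming rule, with the procollagen enhancers, held 2 genes that passed of 7 tested and 16 listed. TLL1, a tolloid-like relative of the procollagen C-proteinase BMP1, rose to 11.01, 10.6 and 12.01 CPM in knockout libraries, against 8.32, 8.29 and 9.08 CPM in wildtype libraries (log2 fold change 0.39, SE 0.084, adjusted p = 0.0284, edgeR). PAPPA, a pappalysin that cleaves insulin-like growth factor binding proteins, fell to 86.8, 87.8 and 88.0 CPM in knockout libraries, against 95.7, 95.5 and 98.7 CPM in wildtype libraries (log2 fold change −0.14, SE 0.034, adjusted p = 0.0447, edgeR). In both the groups did not overlap. Over all genes 0.444% passed as higher in knockout and 0.915% as lower, and TLL1 was placed on the list with its result known. With the replicate number as a block, with DESeq2, or at an adjusted p under 0.01, neither passed. Leaving out any 1 library other than knockout replicate 3 also left both short of the threshold, with adjusted p-values over all settings of 0.0017 to 0.166 for TLL1 and 0.0026 to 0.210 for PAPPA.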

How the data were processed

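mRNA of 6 TC-71 libraries was sequenced after stranded library preparation, per the labels' protocols. The authors deposited a table of raw counts per gene, made with featureCounts (Subread 2.0.1) on GENCODE 33 with reverse-strand counting, per the file header. Reads were aligned with STAR 2.7.6a to GRCh38, per the submitters' processing notes. The deposited table also gives gene length. A second table deposited by the authors (DESeq2 1.38.3 in R 4.2.2, per the submitters' processing notes) holds a mean signal of normalised counts, log2 fold changes, a test score and p-values per gene. It was used for the comparison of calls only.

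Counts were tested with edgeR 4.0.16 (R 4.3.3): TMM normalisation, filterByExpr (minimum count 10, minimum total 15), quasi-likelihood F test, two-sided, Benjamini-Hochberg adjustment over all 14425 genes tested, threshold 0.05. Across genes, libraries of a group varied by a biological coefficient of 3.28%, and a log2 fold change had a median SE of 0.0636. CPM used the TMM-scaled counts of the genes tested (for genes at 0, the limit of 3 counts used total counts and covers counting error only), and FPKM the table's lengths. Alternatives were other scalings, DESeq2 1.42.0, limma 3.58.1 (voom), other filters, each library left out, knockout replicate 3 alone, a replicate block, and a lowess correction (span 0.5) for the GC content of the longest GENCODE 29 transcript. Genes named are XG, the tested members with groups that do not overlap (given 1 CPM or more in the higher one), the 15 of highest FPKM, the TIMPs, the 10 of smallest p, and called genes of each list (up to 4) or the 2 of smallest p. Other members named are given by class. The members and lists were chosen with earlier results of these data known.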

Additional observations from a re-analysis of the deposited data

How the results depend on the processing

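With 3 libraries a group, differences in members under about 1 CPM were not detectable unless large, and the limits below rest on few libraries. The 196 genes past the threshold became 647 with no filter on low counts, 339 with the GC correction, 125 with knockout replicate 3 alone, 33 at an adjusted p under 0.01, and 18 to 1851 with 1 library left out (1851 without knockout replicate 3, 67 or fewer without any other). With the replicate number as a block 37 genes and 0 members passed. Same-numbered libraries did not deviate together (correlations −0.0459, −0.0239 and −0.0512, against 0.00925 to 0.0401 for differently numbered ones). Deviations were taken from each group's mean of 3 libraries, which ties these values together. They therefore cannot settle whether the numbers mark pairs. Of the members, 2 passed with no filter and 2 with the GC correction (ADAMTS4 and MMP9 in both), and 0 to 4 with 1 library left out. Of the partners, 1 passed with no filter, 1 with knockout replicate 3 alone, 2 with the GC correction and 0 to 3 with 1 library left out. Of the substrates, 1 passed with knockout replicate 3 alone, 2 with the GC correction and 0 to 2 with 1 library left out. Of the 7 relatives tested, 2 passed by edgeR with all libraries and 1 with upper quartile scaling. None passed with DESeq2, with the block or at an adjusted p under 0.01, and 0 to 2 passed with 1 library left out. XG kept its call in each fit run, at −0.65 to −0.60 with 1 library left out.

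Among 401 alternative values of the 28 named genes other than XG, 356 kept direction and side of the threshold. Another 12 moved past it, 16 fell short of it and 17 changed sign, in 9 genes. With all libraries only TLL1 and PAPPA of the 28 had passed, so the 16 that fell short were all theirs. With the GC correction the log2 fold change was −0.013 for ADAM10, −0.012 for ADAM9, 0.021 for MMP14 and 0.030 for MMP15. With knockout replicate 3 alone it was 0.035 for MMP14, 0.059 for MMP15, −0.014 for TIMP1 and 0.25 for TIMP4. With 1 library left out it was −0.043 to 0.052 for ADAM15, −0.025 to 0.082 for ADAMTS15, −0.022 to 0.020 for TIMP1, −0.030 to 0.025 for TIMP3 and −0.25 to 0.057 for TIMP4. Ordered by CPM in place of FPKM, 14 of the 15 highest members were shared. The cause of these shifts was not tested.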

Other observations

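Rows named after these genes but outside the naming rule (mostly antisense transcripts and pseudogenes) numbered 21, of which 14 were at 0 in all libraries and 2 were tested. MMP24OS, a gene opposite MMP24 that is annotated as protein-coding, averaged 11.1 ± 0.68 CPM in knockout and 10.7 ± 0.43 CPM in wildtype libraries (SD, n = 3 each, log2 fold change 0.07, adjusted p = 0.736, edgeR). MMP24 itself had 13 counts over the knockout and 9 over the wildtype libraries. MMP25-AS1, antisense to MMP25, averaged 1.77 ± 0.13 CPM in knockout and 1.64 ± 0.35 CPM in wildtype libraries (SD, n = 3 each; log2 fold change 0.09, adjusted p = 0.862, edgeR). Neither passed the test.

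KRT18, an epithelial keratin picked after its values were seen, rose to 3.45, 3.004 and 3.31 CPM in knockout libraries, against 1.99, 1.996 and 2.09 CPM in wildtype libraries (log2 fold change 0.68, adjusted p = 0.0302, edgeR). KRT8, the other tested epithelial marker, had 3.74, 4.24 and 3.63 CPM in knockout libraries, against 3.44, 2.96 and 2.94 CPM in wildtype libraries. Its groups did not overlap, but it did not pass (log2 fold change 0.31, adjusted p = 0.248, edgeR). EPCAM, CDH1 and KRT19 were at or below 0.321 CPM in each library. The part of these keratins in the members' values was not tested.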
